A study of Mus musculus with 15 samples.

Results

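The genes of pyruvate dehydrogenase and the tricarboxylic acid (TCA) cycle, Pdha1, Cs, Idh2, Idh3a, Ogdh, Dlst, Suclg1, Fh1 and Mdh2, 9 in all, were followed in mouse adipocytes that spent no time, 1 day or 12 days in the cool, at 31°C. They were taken by name from a count table of 18804 genes, all 9 were found there, and all 9 were among the 14293 genes with enough reads to test. By an adjusted p under 0.05, 6 of the 9 were higher at day 1 than at day 0 and 2 were lower, against 35.3% and 36.2% of all genes. At day 12, 7 were higher and 1 was lower, against 39.2% and 37.4%. With the scaling used here, TMM, the changes were small against the 1.5-fold limit that was set on calls. The largest was that of Pdha1 at day 1, at 1.49 times its day 0 level, and with TMM no member passed this limit in any comparison. Over all genes the median absolute log2 change was 0.296 at day 1 and 0.352 at day 12. The levels at day 12 depended on the scaling: with scaling to 5 reference genes, 8 of the 9 were called higher than at day 0, and Ogdh, the 1 that was lower, was higher. That scaling called 7327 of the 14293 genes higher. The members did not move together: Pdha1, Dlst and Suclg1 were highest at day 1, Cs, Idh2 and Idh3a were highest at day 12, Ogdh and Fh1 dipped at day 1, and Mdh2 was raised at both times.

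The cells were adipocytes differentiated in culture from mesenchymal stem cells of C57BL/6J mice, with methylisobutylxanthine, dexamethasone, insulin and, per the labels, troglitazone to start adipogenesis, although another passage of the study's methods names rosiglitazone. Every culture was harvested on day 16 of differentiation. The day 0 group stayed at 37°C, cooling to 31°C began on day 15 for the day 1 group and on day 4 for the day 12 group, so that its 12 cool days also covered most of the time in which the cells matured, and time at 31°C and stage at cooling cannot be told apart. Each group had 5 libraries, 15 in all, and nothing in the labels says whether the 5 came from separate animals or dishes. The p-values therefore measure the spread between these libraries, which may be technical.

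The TCA cycle oxidises the acetyl group of acetyl-CoA in the mitochondrial matrix and passes the electrons to the respiratory chain. Pyruvate dehydrogenase feeds it with acetyl-CoA made from pyruvate, and glutamine and other amino acids enter further round. In adipocytes the cycle also supplies citrate, which leaves the mitochondrion and is split in the cytosol to give the acetyl-CoA from which fatty acids are made. Most steps need several subunits, so the amount of 1 transcript is not the activity of the step.

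Depth was high. Total counts per library ran from 64648178 to 133270973, and each member had between 3165 and 32141 counts in every library. Levels are given as CPM, the counts of a gene relative to all counts of its library, adjusted between libraries by the trimmed mean of M-values (TMM). Marker genes of adipocytes were expressed in every group, with a summed level over 8 genes of 4209.8 to 4827 CPM at day 0, 5166 to 5731 at day 1 and 4442 to 4991 at day 12, although 4 of the 8 (Adipoq, Cidec, Lep and Pparg) were called lower at day 12 and 1 (Fabp4) higher. Already at day 1, Cidec (-2.62, from a mean of 177 to 28.8 CPM) and Lep (-0.65) were called lower and Fabp4 (0.76) higher. All 4 proliferation markers (Mki67, Top2a, Ccnb1 and Cdk1) were called higher at day 12, and their summed level went from 47 to 57.2 CPM at day 0 and 55.1 to 65.5 at day 1 to 138 to 166 at day 12. Of these, Ccnb1 was also called higher at day 1 (0.90). Progenitor markers summed to 1339.9 to 1397 CPM at day 0, 1399 to 1476 at day 1 and 1132 to 1165 at day 12, where Ly6a (-1.42) and Dlk1 (-0.90) were called lower. Pdgfra went the other way at day 12 (0.34, edgeR adjusted p = 4.73e-11), under the fold limit, and Thy1 (0.08) and Cd34 (-0.09) changed little. Of the brown and beige adipocyte markers only Dio2 had enough reads to test, and it was called lower at day 12 (-1.16), with a summed level of the list of 116 to 215, 168 to 237 and 67.7 to 81.9 CPM. Macrophage and leukocyte markers summed to 25.7 to 32.6 CPM at day 0, 41.5 to 47.5 at day 1 and 28.2 to 32.1 at day 12, with Cd14 (0.71) and Csf1r (2.03) called higher at day 1 and Adgre1 (-1.16) lower, and Ptprc near 0. Csf1r was also called higher at day 12 (1.47), at a mean of only 0.562 CPM. Cd68 was at 0.45 at day 1 and -0.55 at day 12, both under the fold limit. Cartilage markers summed to 266 to 325, 264 to 299 and 234 to 297 CPM, with Acan (-0.97) and Sox9 (-0.79) called lower at day 12. The third, Col2a1, was higher at day 12 (0.29, edgeR adjusted p = 0.000635), under the fold limit. The mesothelial and epithelial sum, at most 2.09 CPM at days 0 and 1 and 23 to 37.9 at day 12, rose through 1 gene of 7, Msln, with means of 0.628, 0.87 and 29.3 CPM, while Krt19 had 1.02, 0.636 and 1.07 and Wt1, Epcam and Krt14 stayed at or under 3 counts per library. Endothelial and skeletal muscle markers summed to at most 1.21 CPM. The part of these shifts in the results at days 1 and 12 was not tested. In bulk RNA, fewer cells of a type and less RNA per cell cannot be told apart.

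The stretches of DNA just before the RefSeq start sites are shown for the 4 members that the comparisons turned on most: Ogdh and Dlst, which encode parts of the same complex and moved in opposite directions at day 1, Pdha1, with the largest change at day 1, and Mdh2, with the largest at day 12. They are RefSeq sequence of GRCm38.p6, each on the strand of its gene, and run for 150 bases up to the most upstream start site for Ogdh (chr11:6291447-6291596, plus strand), Dlst (chr12:85110683-85110832, plus strand) and Pdha1 (chrX:160138431-160138580, minus strand). For Mdh2, 30 bases are shown (chr5:135778511-135778540, plus strand), which begin 138 bases before the RefSeq start site but lie inside the gene as GENCODE annotates it, from 135778480. Capitals mark letters matched, on either strand, to CCAAT, to the cAMP response element TGACGTCA or to the SP1 motif GGGCGG; Pdha1 had no match in this stretch.
Ogdh: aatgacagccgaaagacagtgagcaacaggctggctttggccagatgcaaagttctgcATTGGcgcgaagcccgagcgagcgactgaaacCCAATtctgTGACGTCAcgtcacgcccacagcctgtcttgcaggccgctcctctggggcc
Dlst: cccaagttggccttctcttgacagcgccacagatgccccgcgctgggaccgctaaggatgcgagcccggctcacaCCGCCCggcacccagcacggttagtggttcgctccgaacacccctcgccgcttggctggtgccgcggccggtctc
Pdha1: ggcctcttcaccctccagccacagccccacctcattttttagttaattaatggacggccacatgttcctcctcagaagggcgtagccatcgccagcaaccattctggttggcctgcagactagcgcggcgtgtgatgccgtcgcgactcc
Mdh2: ggagagaatcgTGACGTCAggcctcgctcg

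The 7 motifs were searched on both strands of the windows from 250 bases before to 50 after each start site. The cAMP response element TGACGTCA was in a window of Ogdh and in that of Mdh2, and in 1.79% of the 32851 windows of all genes. The SP1 motif GGGCGG was in 6 members (Cs, Idh2, Ogdh, Dlst, Fh1 and Mdh2) against 35.7% of windows, and CCAAT in 4 (Cs, Idh2, Ogdh and Fh1) against 37.4%. The GABP motif CCGGAAGT was in Dlst (3.89% of windows), the NRF1 motif GCGCATGC in Ogdh (2.71%), the E-box CACGTG in Ogdh (7.15%), and the ERR motif TCAAGGTCA in no member (0.423%). Ogdh had 6 windows and so more letters to match. In Ogdh the element lay 51 bases before the most upstream start site and in Mdh2 127 bases before the RefSeq start site, after the GENCODE start, so it was present both in a member that fell at day 1 and in one that rose. No match of one motif overlapped a match of another in a member. These are matches of letters and no measure of binding.

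The first comparison asked what 1 day at 31°C did to the entry of pyruvate into the cycle. Pdha1 (ENSMUSG00000031299.10, chrX:160122209-160138413, minus strand) encodes the alpha subunit of the E1 component of pyruvate dehydrogenase, which carries the sites at which kinases switch the complex off. Its level was 179, 177, 175, 184 and 178 CPM in the 5 libraries at day 0, 257, 263, 272, 270.2 and 272 at day 1, and 223, 224, 222, 215 and 225 at day 12. The 3 groups did not overlap, with day 1 highest and day 12 between. Pdha1 rose by 0.58 ± 0.025 (log2, SE) at day 1 (edgeR adjusted p = 5.95e-16), with a 95% interval of 0.53 to 0.63 that includes the 1.5-fold limit of 0.585, and by 0.31 ± 0.025 at day 12 (adjusted p = 4.08e-11). Of its exon bases, 16.1% are shared with Map3k15 on the opposite strand, which had at most 170 counts in any library.

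Citrate synthase and the 2 isocitrate dehydrogenases of the matrix were highest at day 12. Cs (ENSMUSG00000005683.8, chr10:128337734-128362479, plus strand), which joins acetyl-CoA to oxaloacetate, had 255, 241, 245, 254 and 247 CPM at day 0, 255, 252, 246, 257 and 257 at day 1, and 286, 295, 292, 278 and 283 at day 12. Days 0 and 1 overlapped and day 12 was above both. The change was 0.03 ± 0.025 at day 1 (edgeR adjusted p = 0.309, 95% interval -0.02 to 0.08) and 0.21 ± 0.025 at day 12 (adjusted p = 6.69e-08). Idh2 (ENSMUSG00000030541.16, chr7:80094846-80115392, minus strand), the NADP-dependent enzyme, was at 139, 141, 137, 133 and 129 CPM at day 0, 159.8, 159.6, 147, 148 and 151 at day 1, and 182, 184, 180, 183 and 183 at day 12. Idh3a (ENSMUSG00000032279.11, chr9:54586334-54604661, plus strand), the catalytic subunit of the NAD-dependent enzyme of the cycle, was at 41.5, 42.8, 40, 41.1 and 43.1 CPM at day 0, 47.6, 44, 44.3, 46.2 and 48.3 at day 1, and 57.3, 57.2, 58.3, 55.7 and 56.7 at day 12. In both genes the 3 groups were apart and stood in the order of the time spent at 31°C. At day 1, Idh2 rose by 0.17 ± 0.029 (edgeR adjusted p = 1.69e-05), and its rise at day 12 was 0.42 ± 0.029 (adjusted p = 3.04e-12). Idh3a rose by 0.14 ± 0.032 (adjusted p = 0.000352) and 0.45 ± 0.032 (adjusted p = 4.65e-12).

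**Figure D1:**
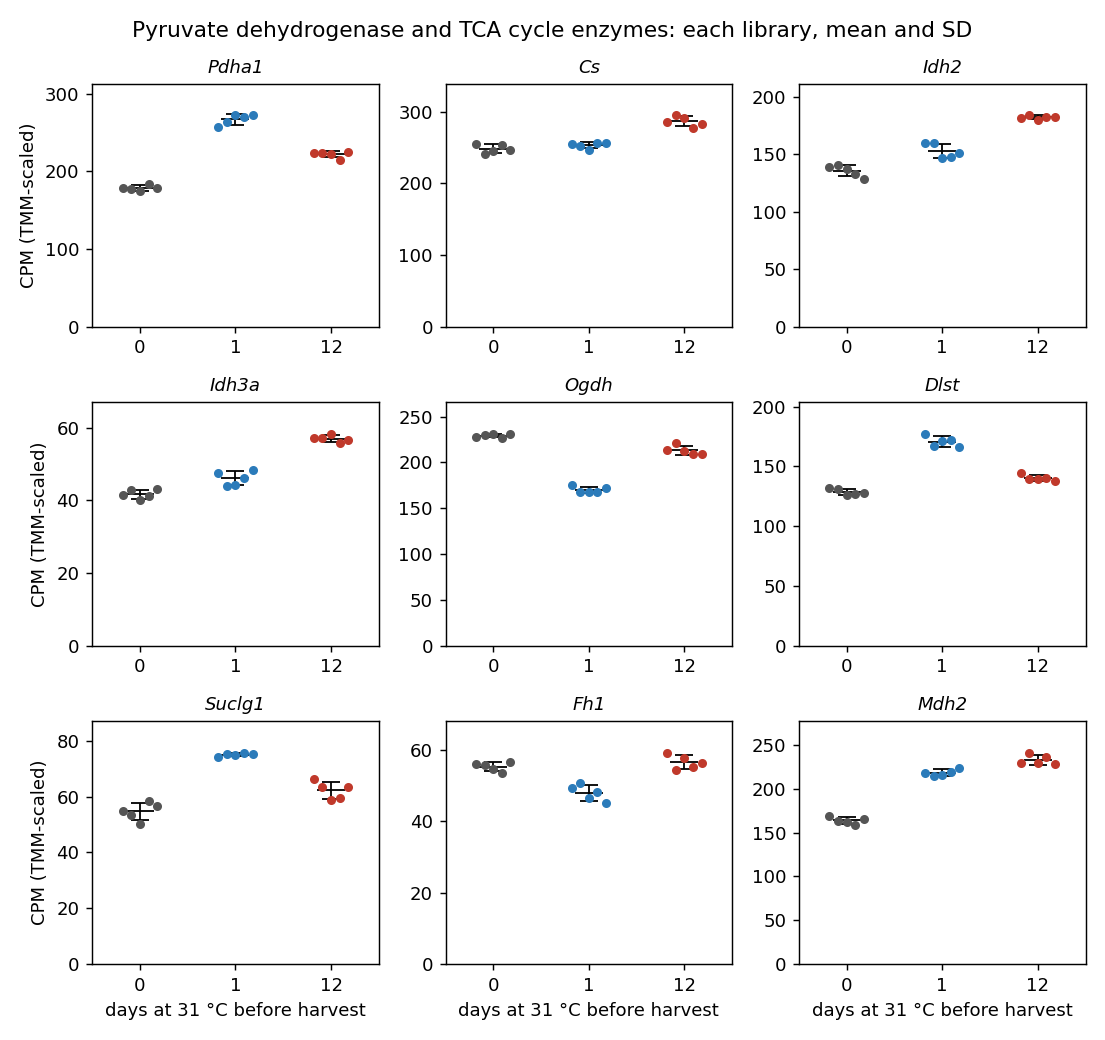
CPM (y axis, from 0, scaled by TMM) of the 9 members in each of the 15 libraries (points) by days at 31°C (x axis), with the mean and SD of 5 libraries as black bars. Pdha1, Dlst and Suclg1 were highest at day 1, Ogdh and Fh1 lowest, and Cs, Idh2, Idh3a and Mdh2 were highest at day 12.

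The 2 members that belong to the 2-oxoglutarate dehydrogenase complex moved apart at day 1. Ogdh (ENSMUSG00000020456.17, chr11:6291633-6356642, plus strand) encodes its E1 component, which takes the carboxyl group off 2-oxoglutarate, and Dlst (ENSMUSG00000004789.10, chr12:85110833-85134845, plus strand) its E2 component, which passes the succinyl group to coenzyme A. Ogdh was at 228, 229.7, 231, 227 and 231 CPM at day 0, 175, 168, 168, 168 and 172 at day 1, and 214, 221, 213, 209 and 209 at day 12. Dlst was at 132, 131, 126, 127 and 128 CPM at day 0, 177, 167, 171, 172 and 166 at day 1, and 144, 139.7, 139.8, 140.1 and 138 at day 12. Every day 1 library was below all others in Ogdh and above all others in Dlst. Ogdh fell by 0.43 ± 0.024 on the log2 scale at day 1 (edgeR adjusted p = 6.48e-14), a change of -25.8%, while Dlst rose by 0.41 ± 0.025 (adjusted p = 5.64e-13), or 32.6%. At day 12 both were closer to day 0: Ogdh stood at -0.10 ± 0.024 (adjusted p = 0.000352) and Dlst at 0.12 ± 0.025 (adjusted p = 0.000112). The small fall of Ogdh at day 12 turned to a rise of 0.09 with scaling to total counts and of 0.50 with scaling to reference genes.

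Succinyl-CoA ligase makes ATP or GTP from succinyl-CoA, and Suclg1 (ENSMUSG00000052738.14, chr6:73248382-73276911, plus strand) encodes the alpha subunit shared by both forms. Its level was 54.9, 53.4, 50.3, 58.5 and 56.6 CPM at day 0, 74.2, 75.4, 74.9, 75.7 and 75.1 at day 1, and 66.2, 63.4, 58.9, 59.5 and 63.3 at day 12. The groups did not overlap, although the highest day 0 library was only just under the lowest at day 12. Suclg1 rose by 0.46 ± 0.037 at day 1 (edgeR adjusted p = 7.73e-11) and by 0.19 ± 0.037 at day 12 (adjusted p = 7.62e-05).

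The last 2 steps, from fumarate to oxaloacetate, parted as well. Fh1 (ENSMUSG00000026526.14, chr1:175600374-175625635, minus strand), fumarate hydratase, was at 56.1, 55.9, 54.7, 53.5 and 56.5 CPM at day 0, 49.4, 50.7, 46.4, 48.3 and 45 at day 1, and 59.2, 54.5, 57.6, 55.3 and 56.3 at day 12. Mdh2 (ENSMUSG00000019179.10, chr5:135778480-135790398, plus strand), the malate dehydrogenase of the matrix, was at 169, 163, 162, 159 and 166 CPM at day 0, 218, 214, 216, 219 and 224 at day 1, and 229, 241, 229, 236 and 228 at day 12. Fh1 was lowest in the day 1 libraries and overlapped between days 0 and 12, whereas Mdh2 was higher in every cool library than in any library at 37°C. Fh1 fell by 0.21 ± 0.034 at day 1 (edgeR adjusted p = 7.85e-06) and its change at day 12 was 0.03 ± 0.034 (adjusted p = 0.392, 95% interval -0.04 to 0.10). At day 1, Mdh2 rose by 0.42 ± 0.025 (adjusted p = 3.89e-13). Its rise of 0.51 ± 0.025 at day 12 (adjusted p = 4.5e-15), or 42.3%, was the largest change of a member at day 12.

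A gene was called when its edgeR adjusted p was under 0.05 and its fold change over 1.5, the limits the study used, and it passed when the adjusted p alone was under 0.05. None of the 9 members was called at day 1, where 7.71% of all genes tested were called higher and 13.4% lower, none at day 12, against 13% and 16.2%, and none between days 12 and 1, against 10.6% and 8.53%. DESeq2 called none either. Other scalings did: at day 12 against day 0, 3 members were called higher with scaling to total counts, 8 with the 5 reference genes and 3 with these without B2m, and from day 1 to day 12, 6 with the 5 reference genes. Of all 14293 genes, 2982, 7327 and 3181 were called higher at day 12 against day 0 under these scalings. From day 1 to day 12 the 5 reference genes gave 7174. At day 1 Pdha1 was called with scaling to either total counts or the 5 reference genes. Members with an unadjusted p under 0.05 numbered 8 at day 1, 8 at day 12 and 9 between days 12 and 1, where 73.4%, 77.8% and 69.6% of all genes were under it.

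By the adjusted p alone, 6 members passed higher at day 1 (35.3% of all genes) and 2 lower (36.2%), 7 higher at day 12 (39.2%) and 1 lower (37.4%), and 6 higher from day 1 to day 12 (34.3%) and 3 lower (32.8%). The groups did not overlap in 8 of 9 members at day 1, 8 at day 12 and 9 between days 12 and 1, where this held for 57.4%, 64.6% and 52.5% of all genes. The median change of the members was 0.17 at day 1, 0.21 at day 12 and 0.18 between days 12 and 1, against -0.009, 0.012 and 0.009 over all genes. The comparisons with day 0 share its 5 libraries. Together the members took 0.116 to 0.119% of all counts at day 0, 0.134 to 0.137% at day 1 and 0.155 to 0.16% at day 12, and their summed TMM-scaled level was 1220 to 1256, 1385 to 1413 and 1433 to 1480.1 CPM.

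The comparison of day 12 with day 1 tested whether the early and late levels differed, and all 9 members passed. Of all genes, 34.3% passed higher and 32.8% lower. Ogdh was 0.33 ± 0.024 higher at day 12, Idh3a 0.31 ± 0.032, Idh2 0.25 ± 0.029, Fh1 0.24 ± 0.034, Cs 0.18 ± 0.025 and Mdh2 0.09 ± 0.025. Dlst stood at -0.28 ± 0.025, Pdha1 at -0.27 ± 0.025 and Suclg1 at -0.27 ± 0.037, and the direction of these 3 depended on the scaling: with scaling to 5 reference genes they stood at 0.31, 0.32 and 0.32. The edgeR adjusted p was at most 0.00226 for any member.

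That dependence was general. Of the genes that the study used as references for its PCR, the 5 scaled to here (Hprt, Tbp, Gapdh, B2m and Ppia) were themselves not level at day 12: 4 of the 5 passed lower, with changes from -2.12 for B2m to 0.35 for Ppia. Scaling to total counts raised the median of all genes at day 12 against day 0 by 0.19, scaling to the 5 genes by 0.60, and scaling to the 4 without B2m by 0.22. The share of calls that were higher moved from 44.4% of all calls to 64.1%, 89.1% and 66.5%. Between days 12 and 1 the shifts were 0.17, 0.59 and 0.22, and the share moved from 55.3% to 72.7%, 94.9% and 76.6%. At day 1 the shifts were at most 0.02. The 8 members that passed at day 1 had the same direction under these scalings, whereas at day 12 they are changes relative to the median gene.

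**Figure D2:**
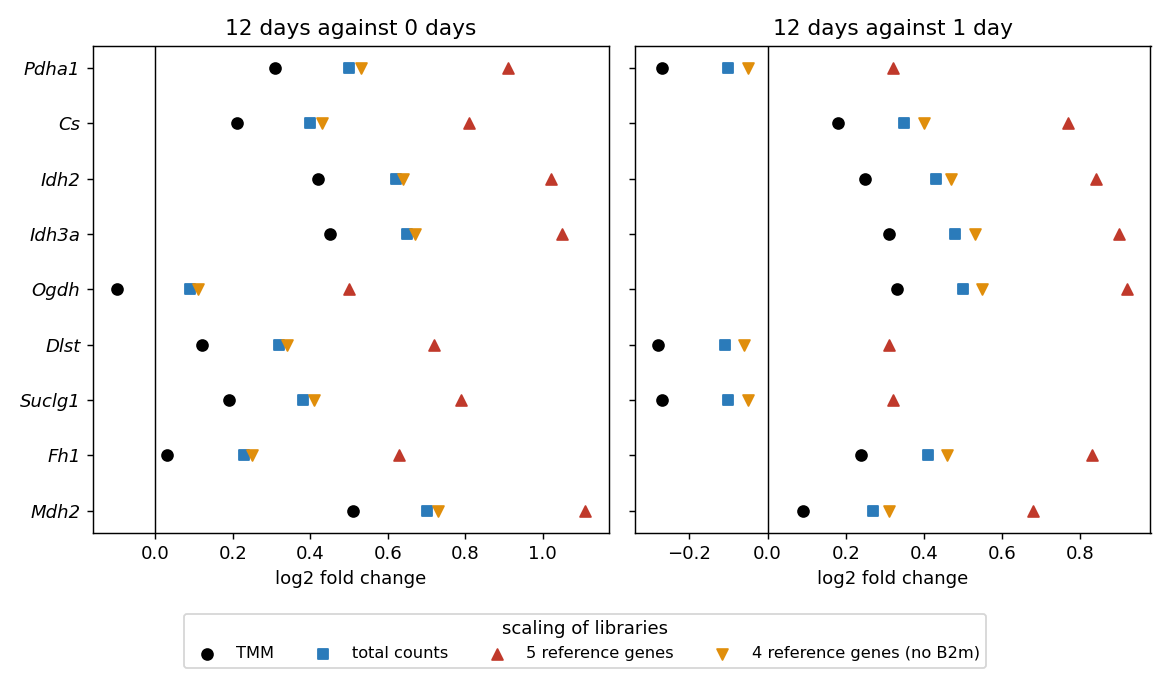
Log2 fold change (x axis) of the 9 members (rows) at day 12 against day 0 (left) and against day 1 (right) under 4 scalings of the libraries (symbols). Each scaling moved all members by about the same amount; at day 12 against day 0 only Ogdh was below 0, and only with TMM, and against day 1 Pdha1, Dlst and Suclg1 were below 0 except with the 5 reference genes.

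Ratios of 2 counts within a library do not depend on scaling, so 8 pairs were compared in each of the 3 comparisons by an exact two-sided permutation test, adjusted over the 24 tests. The smallest p that 5 libraries against 5 allow is 0.00794, or 0.0147 after adjustment here. In all, 5 ratios passed at day 1, 4 at day 12 and 4 between days 12 and 1. Each pass was at this smallest p, which is reached when the groups do not overlap. The levels of single genes did not overlap in 57.4%, 64.6% and 52.5% of all genes. The share of other gene pairs that would pass was not computed, so passing does not set these pairs apart.

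Dlst to Ogdh had the largest change of the 8 ratios at day 1 and between days 12 and 1, but not at day 12 against day 0. The ratio of counts was 0.58, 0.569, 0.545, 0.559 and 0.553 at day 0, 1.01, 0.998, 1.01, 1.02 and 0.97 at day 1, and 0.672, 0.631, 0.655, 0.669 and 0.658 at day 12. The groups were apart in all 3 comparisons. The log2 ratio rose by 0.84 at day 1, was 0.23 above day 0 at day 12 and fell by 0.61 from day 1 to day 12 (exact permutation test, adjusted p = 0.0147 for each).

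Fh1 to Mdh2, the enzymes that follow each other at the end of the cycle, was 0.333, 0.344, 0.338, 0.337 and 0.341 at day 0, 0.227, 0.236, 0.215, 0.221 and 0.201 at day 1, and 0.259, 0.226, 0.252, 0.234 and 0.247 at day 12. Every cool library was below every library at 37°C. The log2 ratio fell by 0.62 at day 1 and by 0.48 at day 12 (exact permutation test, adjusted p = 0.0147 for both), and the difference of 0.14 between days 12 and 1 did not pass (adjusted p = 0.0635).

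Mdh2 to Mdh1, the cytosolic malate dehydrogenase of the malate-aspartate shuttle, was 0.649, 0.636, 0.65, 0.614 and 0.65 at day 0, 0.765, 0.786, 0.745, 0.747 and 0.757 at day 1, and 1.02, 1.06, 1.05, 1.1 and 0.958 at day 12. The groups were apart at each step. The log2 ratio rose by 0.25 at day 1, by 0.69 at day 12 and by 0.45 from day 1 to day 12 (exact permutation test, adjusted p = 0.0147 for each). Mdh1 itself was 256 ± 4.3, 287 ± 8.85 and 225 ± 8.9 CPM (SD, n = 5) at days 0, 1 and 12.

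Other pairs moved less. Pdhb to Pdha1, the beta and alpha subunits of pyruvate dehydrogenase E1, was at 0.312 at day 0, 0.325 at day 1 and 0.311 at day 12 (geometric means), a log2 difference of 0.06 at day 1 (exact permutation test, adjusted p = 0.0147) and of 0.00 at day 12 (adjusted p = 0.944). Idh2 to Idh3a, the NADP- and NAD-dependent enzymes, was at 3.26, 3.32 and 3.20 and passed in no comparison, with adjusted p of 0.667 at day 1, 0.533 at day 12 and 0.251 between them (exact permutation tests). Suclg1 to Sucla2, the alpha subunit and the ATP-forming beta subunit, was at 0.777, 0.752 and 0.716 and also passed in none, with 0.0544 at day 12 as its lowest adjusted p by the exact permutation test.

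The other 2 ratios set forms of 1 reaction side by side. Sucla2 to Suclg2, the ATP- and GTP-forming beta subunits, was at 1.35 at day 0, 1.37 at day 1 and 1.22 at day 12. Its log2 ratio was lower by 0.14 at day 12 than at day 0 and by 0.16 than at day 1 (exact permutation test, adjusted p = 0.0147 for both). Idh2 to Idh1, the cytosolic NADP-dependent enzyme, was at 0.490 at day 0, 0.398 at day 1 and 0.488 at day 12. Its log2 ratio fell by 0.30 at day 1 (adjusted p = 0.0147) and rose by 0.29 from day 1 to day 12 (adjusted p = 0.0147). The difference at day 12 against day 0 was -0.01 (adjusted p = 0.944), all by the exact permutation test.

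**Figure D3:**
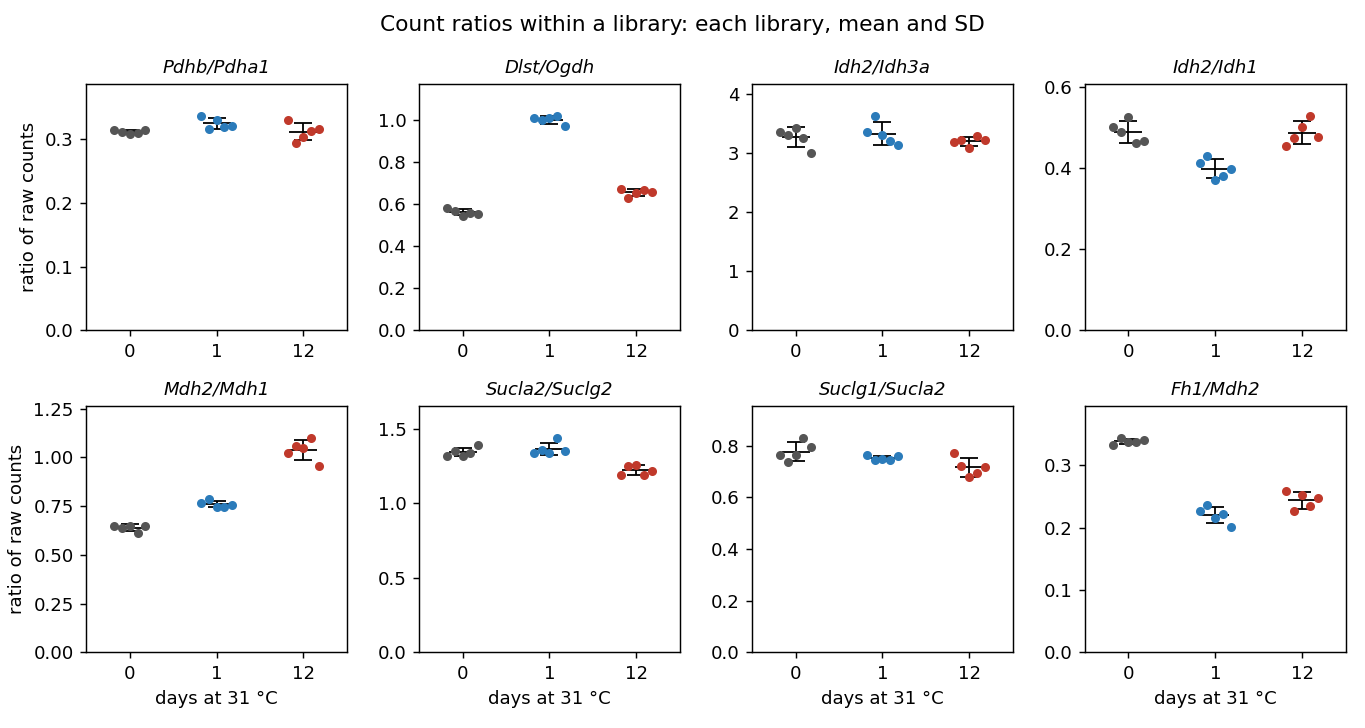
Ratio of raw counts (y axis, from 0) of 8 gene pairs within each of the 15 libraries (points) by days at 31°C (x axis), with the mean and SD of 5 libraries as black bars. Dlst to Ogdh was near 0.56 at day 0 and 1 at day 1, Fh1 to Mdh2 was lower in all 10 cool libraries, and Mdh2 to Mdh1 was highest at day 12.

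Of the 15 other subunits and enzymes of pyruvate dehydrogenase and the cycle, 11 passed higher and 2 lower at day 1. With TMM, 11 also passed higher and 2 lower at day 12, and from day 1 to day 12 it was 2 against 9. Over all genes, 35.3% passed higher and 36.2% lower at day 1, 39.2% and 37.4% at day 12, and 34.3% and 32.8% from day 1 to day 12. These shares also stand beside the counts of the lists that follow. The median change of the 15 genes was 0.40 at day 1, 0.26 at day 12 and -0.16 between days 12 and 1. Pyruvate dehydrogenase was raised throughout at day 1. Pdhb was called higher, with 55.7 ± 1.25 CPM (SD, n = 5) before cooling, 86.7 ± 2.18 at day 1 and 69 ± 3.15 at day 12, a rise of 0.64 ± 0.031 at day 1 (edgeR adjusted p = 7.72e-15). Pdhx, which binds the E3 component to the core, was called higher at 0.59 ± 0.040 (adjusted p = 2.1e-12), but fell to 0.56 and lost the call without day 0 replicate 3 and to 0.58 without day 1 replicate 4. Dlat, the E2 core, passed at 0.40 and Dld, the E3 component shared with the 2-oxoglutarate complex, at 0.43, both under the fold limit.

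Ogdhl and Dhtkd1, the paralogues of Ogdh, were lower in the cool. Ogdhl was at 30.7, 32.2, 30.4, 28.3 and 30.7 CPM at day 0, 19.3, 17.8, 18.5, 18.8 and 20.6 at day 1, and 11.4, 10.9, 10.7, 10.9 and 12 at day 12. The 3 groups were apart, and unlike Ogdh it was lower at day 12 than at day 1. At day 1 it fell by 0.68 ± 0.045 (edgeR adjusted p = 1.91e-12), at day 12 it fell by 1.44 ± 0.047 (adjusted p = 1.05e-18), and it was called lower in all 3 comparisons, although the change from day 1 to day 12 (-0.77 ± 0.047) stood at -0.18 with the 5 reference genes and -0.55 without B2m. Dhtkd1, which acts on 2-oxoadipate in lysine breakdown, had 7.16 ± 0.496 CPM (SD, n = 5) before cooling, then 5.73 ± 0.342 and 4.61 ± 0.312, with a call at day 12 (-0.63 ± 0.070, edgeR adjusted p = 1.54e-08) that ended at -0.44 when scaled to total counts and at -0.03 when scaled to the 5 reference genes. Suclg2 had the highest change of the list at day 12 (0.44 ± 0.029) and Idh3b the highest from day 1 to day 12 (0.18 ± 0.029), with Idh3b at -0.04 ± 0.029 at day 1 (adjusted p = 0.177). Among the succinate dehydrogenase subunits, which also form respiratory complex II, Sdhb, Sdhc and Sdhd passed higher at day 1 (0.43, 0.34 and 0.46), while Sdha was at 0.03 ± 0.022 (edgeR adjusted p = 0.212).

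**Figure D4:**
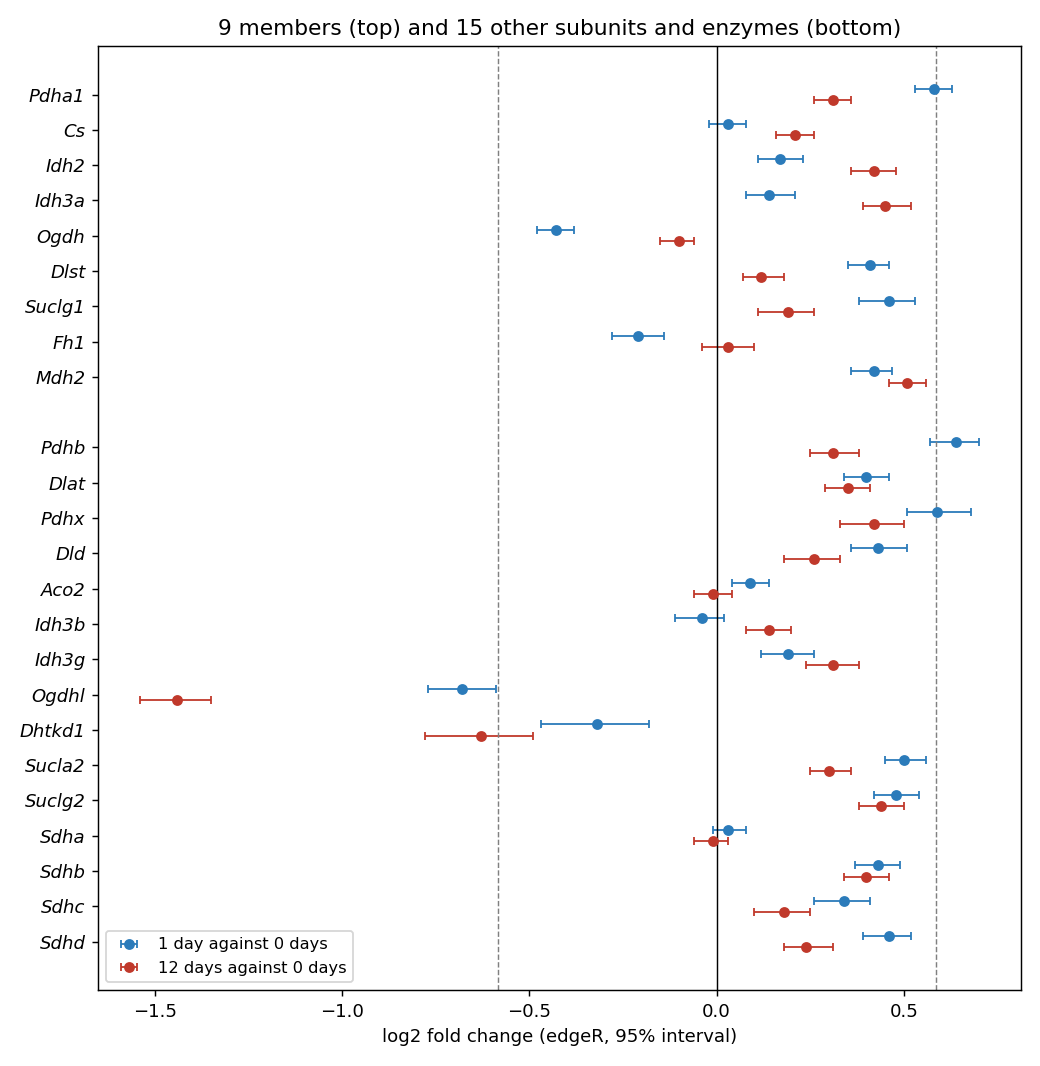
Log2 fold change with its 95% interval (x axis) of the 9 members (top) and 15 other subunits and enzymes (bottom) at day 1 (blue) and day 12 (red) against day 0, with dashed lines at the 1.5-fold limit of 0.585 on the log2 scale. Pdha1 lies just inside the limit at day 1, Pdhb and Pdhx lie past it, and Ogdhl and Dhtkd1 lie past it on the lower side at day 12.

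Kinases switch pyruvate dehydrogenase off by phosphorylation and phosphatases switch it on again. Of the 9 genes of its control and of pyruvate entry, 5 passed higher and 2 lower at day 1. At day 12, 4 passed higher and 4 lower, and from day 1 to day 12 these numbers were 2 and 6. Pdk4, a kinase that inactivates the complex and is induced in fasting, was at 37.9, 42, 36.2, 39.7 and 47.7 CPM at day 0, 32.3, 43.3, 38.1, 36.1 and 45.1 at day 1, and 17.2, 17.2, 17.2, 16.6 and 18 at day 12. Days 0 and 1 overlapped and day 12 was below both. Its change was -0.06 ± 0.071 at day 1 (edgeR adjusted p = 0.458) and -1.24 ± 0.075 at day 12 (adjusted p = 1.92e-13), and it kept its day 12 call at -0.64 when scaled to the 5 reference genes. Pdk1, the kinase induced by hypoxia, was called lower at day 12 (-0.62 ± 0.037, edgeR adjusted p = 1.86e-13), from 139.8 ± 5.66 to 91 ± 6.15 CPM (SD, n = 5), but stood at -0.43 when scaled to total counts and at -0.02 when scaled to the reference genes.

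Pdp1, the catalytic subunit of the phosphatase that reactivates the complex, was at 39.5, 47.1, 38, 44 and 39.6 CPM at day 0, 46.1, 50.6, 47.9, 46.4 and 47.5 at day 1, and 82, 82.9, 84, 83.5 and 80.3 at day 12. Day 12 stood apart from both other groups, which overlapped. It rose by 0.99 ± 0.044 at day 12 (edgeR adjusted p = 6.1e-16), or 98.3%. Pdp2, the second phosphatase, was low, at 4.19 ± 0.572 CPM (SD, n = 5) at day 0, and was called lower at day 1 (-0.66 ± 0.12, edgeR adjusted p = 2.05e-05), a call that ended at -0.56 without day 1 replicate 1. Pdpr, the regulatory subunit of the phosphatase, was called higher at day 1 (0.63 ± 0.055, adjusted p = 2.78e-10). Of the mitochondrial pyruvate carrier, Mpc1 passed higher at day 1 (0.52 ± 0.039, edgeR adjusted p = 2.29e-11), while Mpc2 stood at 0.04 ± 0.037 (adjusted p = 0.322). Exon bases shared with another gene made up 23.1% for Mpc1.

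**Figure D5:**
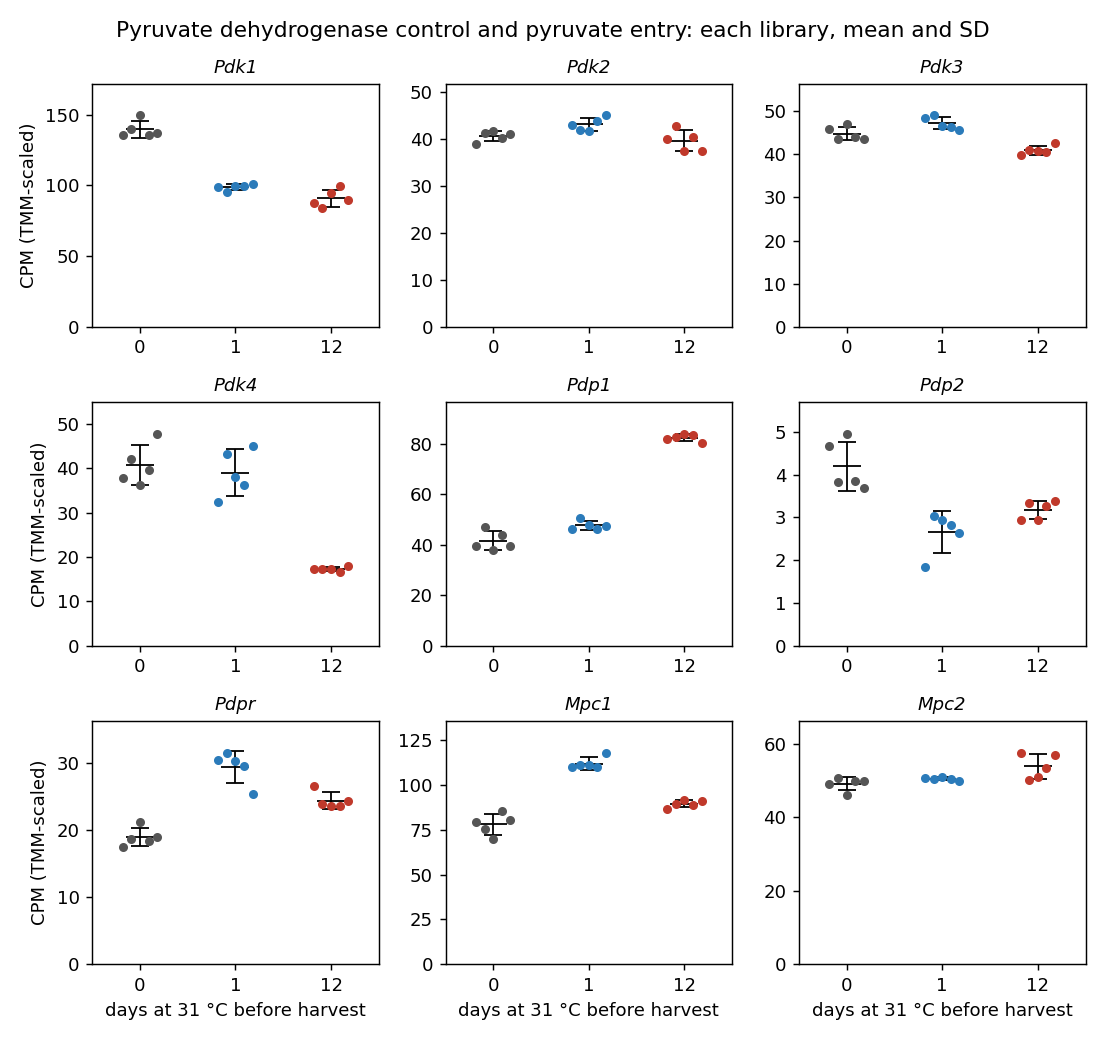
CPM (y axis, from 0, scaled by TMM) of 4 pyruvate dehydrogenase kinases (Pdk1 to Pdk4), 2 phosphatases and their regulatory subunit (Pdp1, Pdp2 and Pdpr) and 2 subunits of the pyruvate carrier (Mpc1 and Mpc2) in each library (points) by days at 31°C (x axis), with the mean and SD of 5 libraries as black bars. Pdk4 was lowest and Pdp1 highest at day 12.

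Around the cycle, 19 genes that feed it, drain it or run its reactions in the cytosol went both ways: 9 passed higher and 7 lower at day 1. The numbers were 10 and 6 at day 12, and 7 and 6 from day 1 to day 12. Me2 and Me3 make pyruvate from malate in the matrix. Me2 was called higher at day 12 (0.95 ± 0.054, edgeR adjusted p = 7.76e-14), at 13.6 ± 1.01, 18.3 ± 1.27 and 26.3 ± 1.41 CPM (SD, n = 5) at days 0, 1 and 12. Me3 was called higher from day 1 to day 12 only (0.66 ± 0.10, adjusted p = 2.97e-06), from 4.17 ± 0.434 to 6.61 ± 0.637 CPM (SD, n = 5). Pcx, pyruvate carboxylase, which makes oxaloacetate from pyruvate, had the lowest change of the list from day 1 to day 12 (-0.48 ± 0.035, edgeR adjusted p = 1.78e-11), under the fold limit. Got1, the cytosolic aspartate aminotransferase, had the highest at day 1 (0.56 ± 0.042, adjusted p = 1.92e-11). Pck1, the cytosolic phosphoenolpyruvate carboxykinase, was called lower at day 1 (-0.68 ± 0.21, edgeR adjusted p = 0.00476) and day 12 (-0.79 ± 0.21, adjusted p = 0.00143), but had a mean of only 1.28 CPM at day 0. The day 1 call ended at -0.58 without day 0 replicate 5, and the day 12 call at -0.18 when scaled to the 5 reference genes and -0.57 without B2m.

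Pyruvate dehydrogenase and the 2-oxoglutarate complex carry lipoic acid on their E2 components. Lias, which makes the lipoyl group, was at 22.3, 21.9, 22.1, 21.7 and 23.7 CPM at day 0, 37.2, 37.1, 37.8, 38.5 and 37.1 at day 1, and 32.4, 32.9, 33.4, 34.5 and 34.9 at day 12. The groups were apart, with day 0 lowest. Its call at day 1 was at 0.75 ± 0.034 (edgeR adjusted p = 1.31e-15). The call at day 12 was just past the fold limit (0.59 ± 0.034, adjusted p = 6.86e-14) and stood at 0.58 without any 1 of day 0 replicates 2, 3 and 4 or day 12 replicates 4 and 5. Of the 7 genes of lipoic acid synthesis and complex II assembly, 2 passed higher and 1 lower at day 1. The numbers were 2 and 1 again at day 12, and 2 and 3 from day 1 to day 12. Sdhaf1, an assembly factor of complex II, was called higher at day 1 (0.64 ± 0.058, adjusted p = 5.8e-10), but E130208F15Rik, on the other strand, covers 69.6% of its exon bases. Sdhaf4 was the lowest of the list at day 1 (-0.34 ± 0.066, adjusted p = 6.3e-05) and the highest from day 1 to day 12 (0.37 ± 0.067), and Sdhaf2 the lowest at day 12 (-0.16 ± 0.032).

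A list of 13 genes of the mitochondrial membranes, protein import and matrix chaperones were counted beside these. At day 1, 10 passed higher and 3 lower, at day 12, 10 higher and 2 lower, and from day 1 to day 12, 2 higher and 5 lower. Changes ran from -0.26 for Vdac1, a channel of the outer membrane, to 0.71 for both Timm23, the import channel of the inner membrane, and Tomm20, an import receptor of the outer membrane, at day 1, and from -0.38 for Vdac1 to 0.64 for Timm23 at day 12. Between days 12 and 1 they ran from -0.36 for Tomm20 to 0.21 for Hspd1, the matrix chaperonin.

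Levels of different members can be compared only per length. Per kilobase of the principal transcript, the mean at day 0 was 112 CPM for Mdh2, 84.9 for Cs, 77.8 for Idh2, 62.7 for Pdha1, 55.6 for Ogdh, 46.6 for Dlst, 36 for Suclg1, 21 for Fh1 and 17.4 for Idh3a, and no neighbours in that order overlapped. At day 1 the order was Mdh2 (150 CPM per kilobase), Pdha1 (93.7), Idh2 (87.7), Cs (86.6), Dlst (61.7), Suclg1 (49.4), Ogdh (41.2), Idh3a (19.2) and Fh1 (18.2). The libraries of Pdha1 and Idh2, of Idh2 and Cs, and of Idh3a and Fh1 overlapped there. At day 12 Mdh2 (160 CPM per kilobase) was followed by Idh2 (105), Cs (98), Pdha1 (77.9), Ogdh (51.7), Dlst (50.8), Suclg1 (41), Idh3a (23.7) and Fh1 (21.5), and only Ogdh and Dlst overlapped. The order depends on the length taken: per kilobase of all annotated exon bases, Idh2 ranked above Mdh2 at day 0, and Dlst fell from 46.6 to 13.5 CPM per kilobase.

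Outside all these lists, 8839 genes averaged 10 CPM or more, and among them those whose log2 CPM over the 15 libraries was most like that of Mdh2 were Tbl3, Cttn, Phb2, Akt1 and Fubp3 (Pearson r from 0.991 to 0.993). Those most like the mean of the 9 standardised members were Eif3i, Ppp1ca, Ap2m1, Eif4a1 and Vac14 (r from 0.985 to 0.989). The points share the 3 groups of libraries, which any r over them follows, and 13.1% of the genes had an r over 0.9 with Mdh2 and 11% with the mean of the members. Taken within groups, as deviations from the group means, the 36 pairs of members had r from -0.568 to 0.591 with a median of 0.11.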

How the data were processed

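Total RNA from 15 adipocyte libraries was sequenced. Per the labels and the study's methods, the authors checked reads with FastQC, aligned them to mm10 with TopHat2 2.0.13 and Bowtie2 2.2.1 and counted them per gene with HTSeq, and the deposited table holds these raw counts. Whether counting used the strand is not given in the sources used here. Counts were tested with edgeR 4.0.16 (R 4.3.3): genes were filtered with filterByExpr (minimum count 10), scaled by TMM and fitted by quasi-likelihood over all 15 libraries with no covariate, and p-values were adjusted by Benjamini-Hochberg over the 14293 genes tested. Intervals are 95%. DESeq2 1.42.0 was the alternative tool. Ratios of counts were tested by exact permutation in SciPy 1.17.1. The fit was tested on simulated data. The common coefficient of variation between libraries was 5.25%. Coordinates and transcript lengths are from GENCODE for GRCm38 (mm10), and promoter sequences from RefSeq for GRCm38.p6.

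Named were all 9 members, every gene of 4 other lists that was called in a comparison or had a list's highest or lowest change, and the 5 genes most like Mdh2 and most like the members' mean. A gene of these lists that was counted with its list is otherwise not reported here. The members, lists, motifs and tests were chosen with earlier results of these data known.

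Same-numbered libraries did not deviate together (r from -0.026 to 0.044), so replicate numbers were not taken as pairs. Alternatives were other scalings and filters, DESeq2, the groups compared alone, the library series read from the library numbers, a replicate block and leaving out each library.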

Additional observations from a re-analysis of the deposited data

Results flagged for a closer look

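The members' change from day 1 to day 12 was itself tested, by edgeR on all 15 libraries, and all 9 members differed between the 2 times: Pdha1 (-0.27), Dlst (-0.28) and Suclg1 (-0.27) were lower at day 12 and Cs (0.18), Idh2 (0.25), Idh3a (0.31), Ogdh (0.33), Fh1 (0.24) and Mdh2 (0.09) higher, on the log2 scale with TMM. Of all genes, 34.3% passed higher and 32.8% lower in this comparison. Among the other genes named, the early and late levels differed past the fold limit for Ogdhl (-0.77), Pdk4 (-1.18), Pdp1 (0.79) and Me3 (0.66).

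Single libraries stood apart from the other 4 of their group, by a gap of over 0.71 of the group's range, in 6 of 102 groups of 5 (5.88%), where chance gives about 1 in 20, and none was a member. Dhtkd1 was at 6.33 CPM in day 1 replicate 4, with the next at 5.65. Pdk1 was at 149.6 CPM in day 0 replicate 3, against 139.6 for the next. Pdpr was at 26.6 CPM in day 12 replicate 1, against 24.3. Me3 was at 6.52 CPM in day 0 replicate 2, against 4.86. Sdhaf1 was at 18.3 CPM in day 1 replicate 5, against 17.1. Hspd1 was at 150.5 CPM in day 1 replicate 1, below the next at 159.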

How the results depend on the processing

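Under the alternatives, 690 values of the members kept their direction and side of the threshold, 3 passed newly, 3 no longer passed and 6 turned. Those that turned were Ogdh at day 12, at 0.09 with total counts, 0.50 with the 5 reference genes and 0.11 with these without B2m (an alternative chosen after seeing the data), and, from day 1 to day 12 with the 5 reference genes, Pdha1 (0.32), Dlst (0.31) and Suclg1 (0.32). Without B2m these 3 stood at -0.05, -0.06 and -0.05 and no longer passed. The cause was not tested.

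The fold limit decided the count of calls. With none, 6 members were higher and 2 lower at day 1, 7 and 1 at day 12, and 6 and 3 from day 1 to day 12, and of the other pathway genes of all lists 37 were higher and 15 lower at day 1, 37 and 15 at day 12, and 15 and 29 from day 1 to day 12, where the limit left 8 and 3, 4 and 5, and 3 and 2. Over all genes the shares with no limit were 35.3% and 36.2%, 39.2% and 37.4%, and 34.3% and 32.8%. With the limit they were 7.71% and 13.4%, 13% and 16.2%, and 10.6% and 8.53%. At day 1, Pdha1, just under the limit, was called with total counts, with the 5 reference genes and with only the 2 groups compared (1 member each). Leaving out 1 library gave 0 to 1 members called higher at day 1, with 1 without day 0 replicate 4 (Pdha1 at 0.59) and 1 without day 1 replicate 1 (0.59).

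At day 12, the members called higher were 3 with total counts, 8 with the reference genes and 3 without B2m, those passing lower were 0 under each, and the other pathway genes called were 15 higher and 3 lower, 44 and 2, and 17 and 2. Over all genes the calls were 2982 higher and 1668 lower, 7327 and 893, and 3181 and 1604. From day 1 to day 12, 6 members were called higher with the reference genes, those passing lower were 0 with the reference genes and 0 without B2m, and the other pathway genes called higher were 5 with total counts, 21 with the reference genes and 7 without B2m, with 1 lower under each of the last 2. Over all genes, 2248, 7174 and 2537 were called higher under these 3 scalings. Testing only genes that averaged 10 CPM or more, which leaves fewer genes, left 1 other pathway gene lower at day 1 and 3 at day 12.

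With a replicate block the members passing stayed at 6 higher and 2 lower at day 1, 7 and 1 at day 12, and 6 and 3 from day 1 to day 12. Libraries correlated best with their own number often, but not always. The ratios tested within replicate numbers, and those in the 11 libraries of the larger library series alone, could not reach the threshold in this design. The library series, read from the library numbers only, as a covariate moved no count of members. Among other genes, the call of Lias at day 12 was at 0.57 to 0.58 under several settings and that of Pck1 at day 12 at -0.55 in the larger series.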
